A study of Mus musculus with 6 samples.

Results

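The genes described here are 34 target genes and regulators of p53, the transcription factor encoded by Trp53, followed through 6 mRNA libraries of mouse embryonic stem cells (ESCs). They were taken as a named list, whose rule uses no measured value but which was drawn up with earlier results of these data known. All 34 were found by gene symbol or gene ID among the 18857 genes of the joined files. By role they comprised 5 regulators (Trp53, Mdm2, Mdm4, Ppm1d, Trp73), 7 genes of growth arrest (Ccng1, Btg2, Plk2, Plk3, Gtse1, Rprm, Gadd45a), 14 of cell death and survival, 5 of DNA repair and nucleotide supply, and 3 secreted or stress metabolism genes (Gdf15, Sulf2, Sesn1). The cell death genes were Bax, Bbc3, Pmaip1, Perp, Fas, Tnfrsf10b, Apaf1, Aen, Ei24, Trp53inp1, Phlda3, Eda2r, Dram1 and Zmat3. The repair genes were Ddb2, Xpc, Polk, Rrm2b and Ercc5. None of the 34 was at 0 reads in any library, and the question was whether loss of the Erk kinases was accompanied by higher levels of these genes.

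All libraries came from the KH2 line, on a mixed C57BL/6 and 129 background, with 1 library per group. Wild-type KH2 cells were either untreated or given PD0325901, an inhibitor of the kinase Mek that activates the Erk kinases, for 48 h. The remaining 4 were made from cells with the genotype iErk1; Erk KO, an Erk knockout in which Erk1 depends on doxycycline (Dox). These were kept with Dox, kept without Dox for 48 h, kept without Dox for 96 h, or kept without Dox for 96 h with PD0325901 added for the final 48 h. Dox itself is absent wherever the transgene is off, so effects of Dox and of Erk1 cannot be told apart, and the Dox-maintained cells differ from KH2 in both genotype and Dox. The labels do not give the number of clones, the inhibitor's dose or whether feeder cells were present. With 1 library per group, a ratio is a statement about those libraries and not about the conditions, and its 95% interval holds counting error alone. In bulk RNA, fewer cells with a transcript and less of it per cell cannot be told apart.

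Library totals ran from 9.05 to 9.95 megareads assigned to genes. Levels are in RPKM, the reads on a gene scaled to its length in kilobases and to the library's size, and a gene of 2 kb with 1 read stood at 0.0502 to 0.0553 RPKM. Mapk3, which encodes Erk1, was at 56.4 and 52.8 RPKM in the KH2 libraries without and with inhibitor, 14.8 RPKM with Dox, and 6.86, 6.75 and 9.18 RPKM in the 48 h, 96 h and inhibited 96 h libraries. All 8 ESC markers were expressed in every library, with Pou5f1 between 539 and 769 RPKM. A list of 22 fibroblast markers, none at 0 reads in any library, had summed levels of 895 RPKM in KH2 and 3460 RPKM in KH2 with inhibitor. In the engineered line the sums were 405, 351 and 399 RPKM in the Dox, 48 h and 96 h libraries, and 1170 RPKM in the inhibited 96 h library.

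The protein p53 is held low in unstressed cells by Mdm2, a ubiquitin ligase that p53 itself induces, and by the related protein Mdm4. When DNA damage or other stress stabilises it, p53 binds paired short half-sites in DNA and raises genes for cell cycle arrest, DNA repair and death. Mouse ESCs are known for abundant Trp53 mRNA and for a weak p53-driven arrest in the G1 phase.

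The sequence bound by p53 is made of half-sites of 10 bases, each with 3 purines, a C, 2 bases that are A or T, a G and 3 pyrimidines, a pattern that is its own reverse complement. In RefSeq promoters (build GRCm38.p6, not the mm9 of the files) 26 of the 34 members had an entry. Of these, 10 held a match in the 250 bases upstream of the start (38.5%), against 8.2% of 27025 genes. The 10 were Aen, Bax, Ccng1, Ei24, Gadd45a, Mdm2, Polk, Ppm1d, Sesn1 and Trp53. No member had 2 matches separated by at most 13 bases, which 0.064% of all 32851 windows had. A match describes letters in this window and is not evidence of binding. The windows shown are those of Gadd45a, the 1 holder of a match that passed the size limit in any comparison, and of Trp53, Mdm2 and Ccng1, whose levels are given in full, with the half-site in capitals and each read along the gene's strand. They lie at chr6:67037418-67037467 (minus strand), chr11:69580264-69580313 (plus), chr10:117710915-117710964 (minus) and chr11:40755442-40755491 (minus).
Gadd45a: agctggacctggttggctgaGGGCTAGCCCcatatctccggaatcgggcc
Trp53: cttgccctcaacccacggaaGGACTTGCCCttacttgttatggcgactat
Mdm2: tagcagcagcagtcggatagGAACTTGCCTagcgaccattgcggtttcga
Ccng1: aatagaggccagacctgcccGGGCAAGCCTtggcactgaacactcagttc
The match in Gadd45a begins 40 bases upstream of the annotated start, that in Trp53 75, that in Ccng1 185 and that in Mdm2 186 bases upstream.

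The members covered a wide range of levels, and most were highest in 1 of the KH2 libraries. KH2 with inhibitor held the highest level of 16 members and untreated KH2 that of 12, whereas the Dox library held the lowest level of 12 and the 48 h library that of 11. Trp53 had the highest level among the members in all 4 libraries of the engineered line, Bax in KH2 and Ccng1 in KH2 with inhibitor, and Rprm had the lowest or second lowest level in each of the 6. Median levels were 24.1 and 19.9 RPKM in KH2 without and with inhibitor, 11.1 RPKM with Dox, 9.91 RPKM at 48 h, 13.6 RPKM at 96 h and 12.8 RPKM with inhibitor at 96 h.

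**Figure D1:**
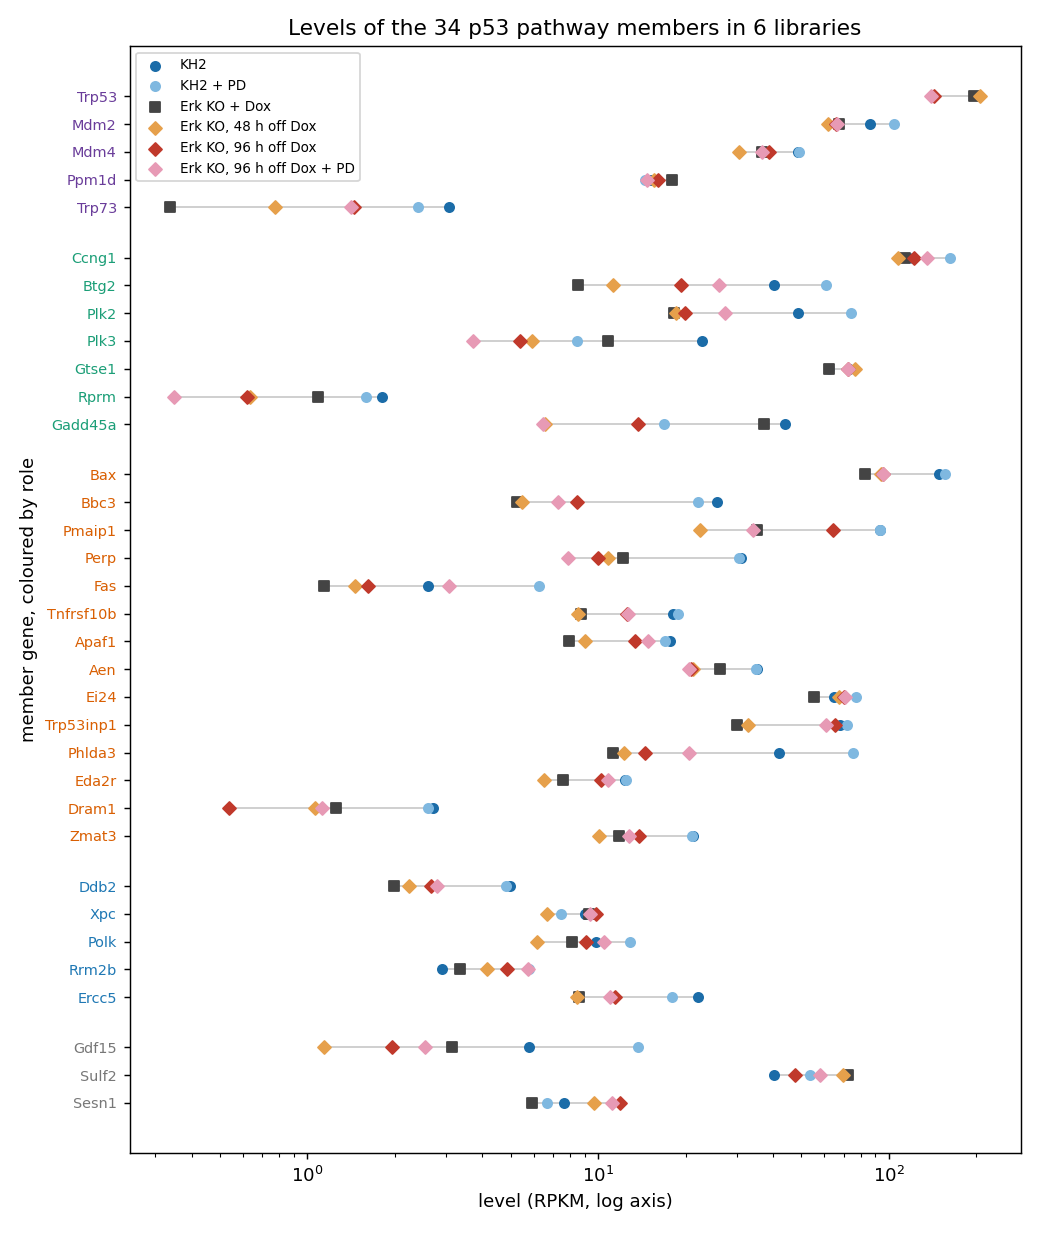
Level of each of the 34 members in RPKM (log axis) in the 6 libraries, 1 point per library, with names coloured by role. The 2 KH2 libraries (circles) stand to the right of the 4 libraries of the engineered line for 21 members, and the lowest points are those of Trp73 and Rprm.

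A pair of libraries was compared by a size limit: a log2 ratio, taken on RPKM plus 0.5, no smaller than 1 in either direction, at least 1 RPKM in the higher library, at least 20 reads in all and a 95% interval that excluded a ratio of 1. Folds and their intervals are on reads scaled to library totals, and therefore exceed the log2 ratios at low levels. By this limit 16 of the 34 members passed in at least 1 of 6 comparisons and 18 in none, against 31.9% of 13104 genes that passed in at least 1. In the 5 comparisons made within KH2 or within the engineered line 8 members passed at least once, against 15.3% of 13101 genes.

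The design's comparison for Erk knockout set the 48 h library without Dox against the Dox library. No member was higher past the limit and 2 of the 33 tested were lower, Gadd45a and Gdf15. The background was 4.89% of 11386 genes past the limit, 2.77% higher and 2.13% lower. The members' median log2 ratio was −0.06 and that of all tested genes −0.03, with 14 members above 0 and 19 below. Of 20 fibroblast markers tested 0 passed the limit, and their median was 0.04.

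After 96 h without Dox, 3 of the 34 members were higher than in the Dox library (Trp73, Btg2 and Trp53inp1) and 1, Gadd45a, was lower. The background was 9.68% of 11804 genes, 7.62% higher and 2.07% lower. The members' median log2 ratio was 0.21 against 0.05 for all genes, and 23 of 34 members had a ratio above 0 (67.6%) against 54.9% of all genes. The difference between these medians was 0.15 on library totals, with TMM factors and with DESeq2 size factors alike. A scaling factor shifts all genes of a comparison nearly alike, so this difference could hardly change and its constancy is no check. TMM factors put the all-gene median at −0.05 and the members' at 0.10. Of all genes past the limit 78.7% were higher on library totals and 68.7% with DESeq2 size factors. With TMM factors 2 members were higher and 2 lower, against 6.26% and 2.63% of all genes. With DESeq2 size factors 1 member was higher and 2 lower, against 6.02% and 2.74%. Of 20 fibroblast markers tested 2 were higher and 1 lower, their median was 0.38 and 15 had a ratio above 0 (75%), and their part in the members' ratios was not tested.

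Between 48 h and 96 h without Dox, 2 of 33 members were higher at 96 h, Pmaip1 and Gadd45a, and 0 were lower. The background was 5.02% of 11722 genes, 4.55% higher and 0.469% lower. The members' median was 0.23 and that of all genes 0.08, or 0.11 and −0.04 with TMM factors. Above 0 lay 26 of the 33 members tested (78.8%) and 59.7% of all genes, and these included all 5 repair and nucleotide supply genes, whose median was 0.42. Of 20 fibroblast markers tested 2 were higher and 0 lower, their median was 0.34 and 17 had a ratio above 0 (85%), and their part was not tested. The comparisons at 48 h, at 96 h and between them share libraries, so their values are not independent of each other.

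**Figure D2:**
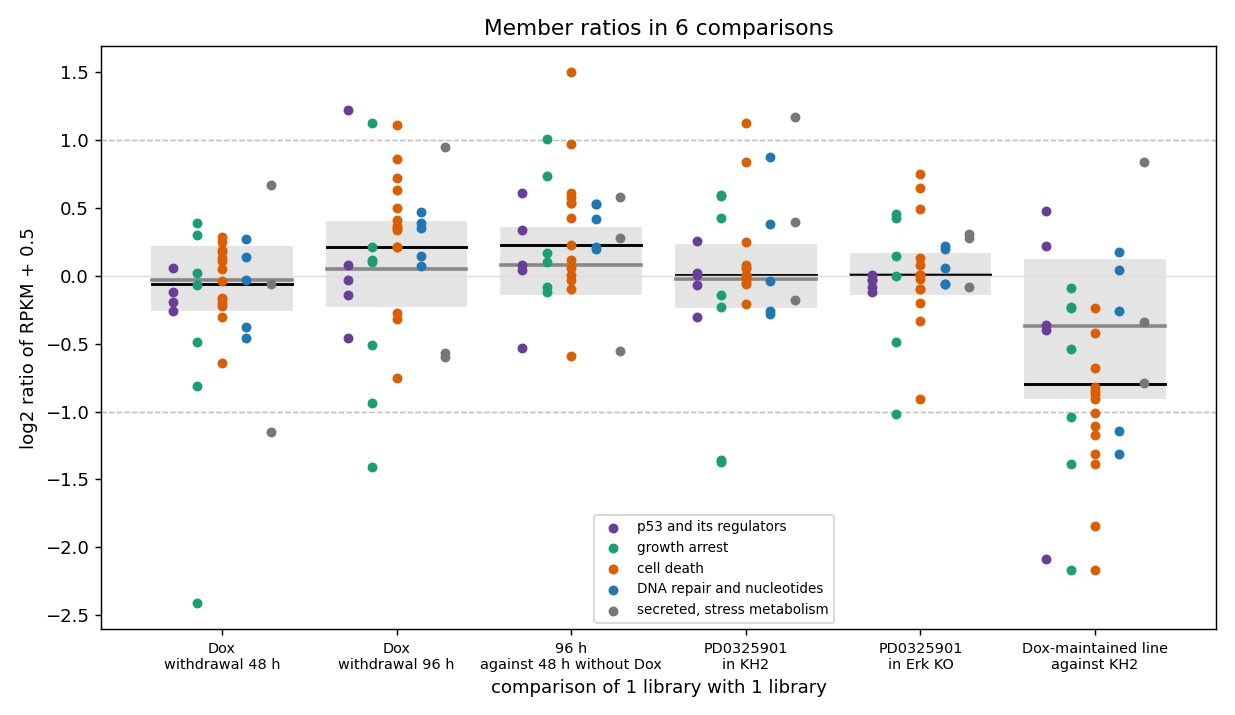
Log2 ratio of RPKM plus 0.5 for each member tested, coloured by role, in 6 comparisons of 1 library with 1 library. Black lines are the members' medians, grey lines and boxes the median and quartiles of all genes tested, and dashed lines the 2-fold limit; the members' median lies furthest from that of all genes in the comparison of the Dox-maintained line with KH2, at −0.80 against −0.37.

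Among the regulators, Trp53 itself was at 142 RPKM in both KH2 libraries, at 197 RPKM with Dox and 206 RPKM at 48 h, and at 143 and 140 RPKM in the 96 h libraries without and with inhibitor. The Dox and 48 h libraries were thus the high ones, and the 96 h library stood 1.38-fold below the Dox library (1.31 to 1.45), short of the limit. Mdm2, the ubiquitin ligase that is both target and inhibitor of p53, was at 86.4 and 104 RPKM in KH2 and 67.2, 62.0, 65.8 and 66.3 RPKM in the Dox, 48 h, 96 h and inhibited 96 h libraries. Its ratio to the Dox library was 1.08-fold lower at 48 h (1.02 to 1.16) and 1.02-fold lower at 96 h (0.959 to 1.09). Mdm4, its partner, and Ppm1d, a phosphatase that acts against p53, passed in no comparison and ranged from 30.6 to 49.3 RPKM and from 14.5 to 17.9 RPKM.

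Trp73, which encodes the p53 relative p73, had the widest range of the regulators. It had 141 and 110 reads in KH2 without and with inhibitor, 16 reads with Dox, 38 reads at 48 h, 73 reads at 96 h and 70 reads in the inhibited 96 h library. These correspond to 3.07, 2.41, 0.337, 0.776, 1.45 and 1.41 RPKM. The Dox library was the lowest and both KH2 libraries the highest. Against the Dox library Trp73 was 2.30-fold higher at 48 h (1.25 to 4.42), where it was below 1 RPKM and so not tested, and 4.31-fold higher at 96 h (2.49 to 7.94). With a pseudocount of 1 its 96 h log2 ratio fell from 1.22 to 0.88, below the limit.

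Gadd45a, a growth arrest and DNA damage gene that encodes a partner of stress kinases and cell cycle regulators, passed in 5 of the 6 comparisons. Its level was 44.0 RPKM in KH2 and 16.8 RPKM with inhibitor. In the engineered line it was 37.2 RPKM with Dox, 6.57 RPKM at 48 h, 13.7 RPKM at 96 h and 6.48 RPKM in the inhibited 96 h library. The high libraries were the 2 with neither inhibitor nor Dox withdrawal, and the other 4 did not overlap with them. Loss of Dox for 48 h went with a 5.66-fold lower level (4.44 to 7.30), from 428 to 78 reads, and 96 h with a 2.71-fold lower one (2.26 to 3.26). Between the times it was 2.09-fold higher at 96 h (1.59 to 2.77), which with TMM factors was a log2 ratio of 0.89, below the limit.

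Btg2, an antiproliferative transcription cofactor, was at 40.3 and 61.0 RPKM in KH2 without and with inhibitor, and at 8.55, 11.3, 19.3 and 26.1 RPKM in the Dox, 48 h, 96 h and inhibited 96 h libraries. Its 96 h level was 2.25-fold that of the Dox library (1.94 to 2.62) and still below both KH2 levels. With DESeq2 size factors this log2 ratio was 0.99, below the limit. Plk3, a stress-responsive polo-like kinase, went the other way. It was at 22.7 RPKM in KH2 and 8.49 RPKM with inhibitor, then 10.8 RPKM with Dox, 5.91 RPKM at 48 h, 5.40 RPKM at 96 h and 3.70 RPKM with inhibitor at 96 h. It was 1.82-fold lower at 48 h (1.48 to 2.26) and 2.0-fold lower at 96 h (1.61 to 2.48). On library totals its log2 ratios of −0.81 and −0.94 did not reach the limit. With TMM factors and with DESeq2 size factors Plk3 did pass as lower at 96 h, beside Gadd45a.

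Ccng1, cyclin G1 and a long-known p53 target, was at 121 and 163 RPKM in KH2, and at 114, 108, 122 and 135 RPKM in the Dox, 48 h, 96 h and inhibited 96 h libraries. The engineered line spanned a narrow range and Ccng1 passed in no comparison. Gtse1, a p53-binding protein of the S and G2 phases, also passed in none, with 62.1 to 76.7 RPKM. Rprm, the G2 arrest gene reprimo, had between 5 and 24 reads in a library, and its interval for 96 h against 48 h ran from 0.361 to 2.92.

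Of the cell death genes, Trp53inp1 and Pmaip1 were the 2 that passed the limit on Dox withdrawal or between the times. Trp53inp1, which encodes a p53-induced nuclear protein, was at 68.1 and 71.9 RPKM in KH2, 30 RPKM with Dox, 32.9 RPKM at 48 h, 65.2 RPKM at 96 h and 60.8 RPKM with inhibitor at 96 h. The Dox and 48 h libraries formed the low pair, and the 96 h level was 2.17-fold that of the Dox library (2.04 to 2.31). With TMM factors this log2 ratio was 1.0 and with DESeq2 size factors 0.97, both just under the limit.

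Pmaip1, which encodes the BH3-only death protein Noxa, had its lowest level at 48 h. It was at 93.1 and 93.6 RPKM in KH2, 35.3 RPKM with Dox, 22.5 RPKM at 48 h, 64.4 RPKM at 96 h and 34 RPKM with inhibitor at 96 h. The 96 h library was 2.86-fold above the 48 h library (2.60 to 3.15) and 1.82-fold above the Dox library (1.68 to 1.98). Thus its ratio to the Dox library was 1.57-fold lower at 48 h (1.41 to 1.74) and higher at 96 h, each short of the limit.

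The other 12 death genes did not pass on Dox withdrawal. Apaf1, the apoptosome scaffold, was 1.69-fold higher at 96 h than with Dox (1.51 to 1.89), Bbc3 1.6-fold higher (1.24 to 2.08) and the TRAIL receptor gene Tnfrsf10b 1.44-fold higher (1.23 to 1.69). For 10 of the 14 death genes the interval at 96 h lay above a ratio of 1 and for 2 below it, against 34.4% and 25.2% of all genes. These folds and counts are on library totals. On that scale the median log2 ratio of all members was 0.21, and with TMM factors 0.1. Bax, the pore-forming death effector, was 1.15-fold higher (1.04 to 1.28), and Aen, an apoptosis-linked nuclease, 1.26-fold lower (1.12 to 1.41). Across the 6 libraries Bax ranged from 82.6 to 156 RPKM, Ei24 from 55.1 to 77.4, Aen from 20.6 to 35.2, the RNA-binding protein gene Zmat3 from 10.1 to 21.2, and the death receptor gene Eda2r from 6.51 to 12.5 RPKM. The autophagy gene Dram1 had 69 and 66 reads in KH2 without and with inhibitor, 33 reads with Dox, 29 at 48 h, 15 at 96 h and 31 with inhibitor at 96 h (2.70, 2.60, 1.25, 1.06, 0.537 and 1.12 RPKM). At 96 h it was 2.33-fold lower than with Dox, with a wide interval of 1.23 to 4.61 and a log2 ratio of −0.75. These 6 passed the limit in no comparison.

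Of the secreted and stress genes, Gdf15, a stress cytokine of the TGF-beta family, had few reads in the engineered line. It had 57 and 134 reads in KH2 without and with inhibitor (5.79 and 13.7 RPKM), 32 reads with Dox, 12 at 48 h, 21 at 96 h and 27 with inhibitor at 96 h (3.14, 1.14, 1.95 and 2.53 RPKM). At 48 h it was 2.75-fold lower than with Dox, with a wide interval of 1.38 to 5.86. With a pseudocount of 1 this log2 ratio was −0.95, below the limit, and with at least 100 reads asked for Gdf15 was not tested. Sesn1, a sestrin that restrains mTORC1 signalling, was at 7.64 and 6.67 RPKM in KH2 without and with inhibitor, 5.91 RPKM with Dox, 9.68 RPKM at 48 h and 11.9 RPKM at 96 h, which is 2.01-fold higher (1.67 to 2.41) with a log2 ratio of 0.95. Rrm2b, the p53-inducible ribonucleotide reductase subunit, was at 3.35, 4.14 and 4.85 RPKM in the last 3 of these libraries and did not pass. The other repair genes that passed in no comparison were the damage sensor gene Xpc, at 6.66 to 9.81 RPKM, and the translesion polymerase gene Polk, at 6.15 to 12.9 RPKM.

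**Figure D3:**
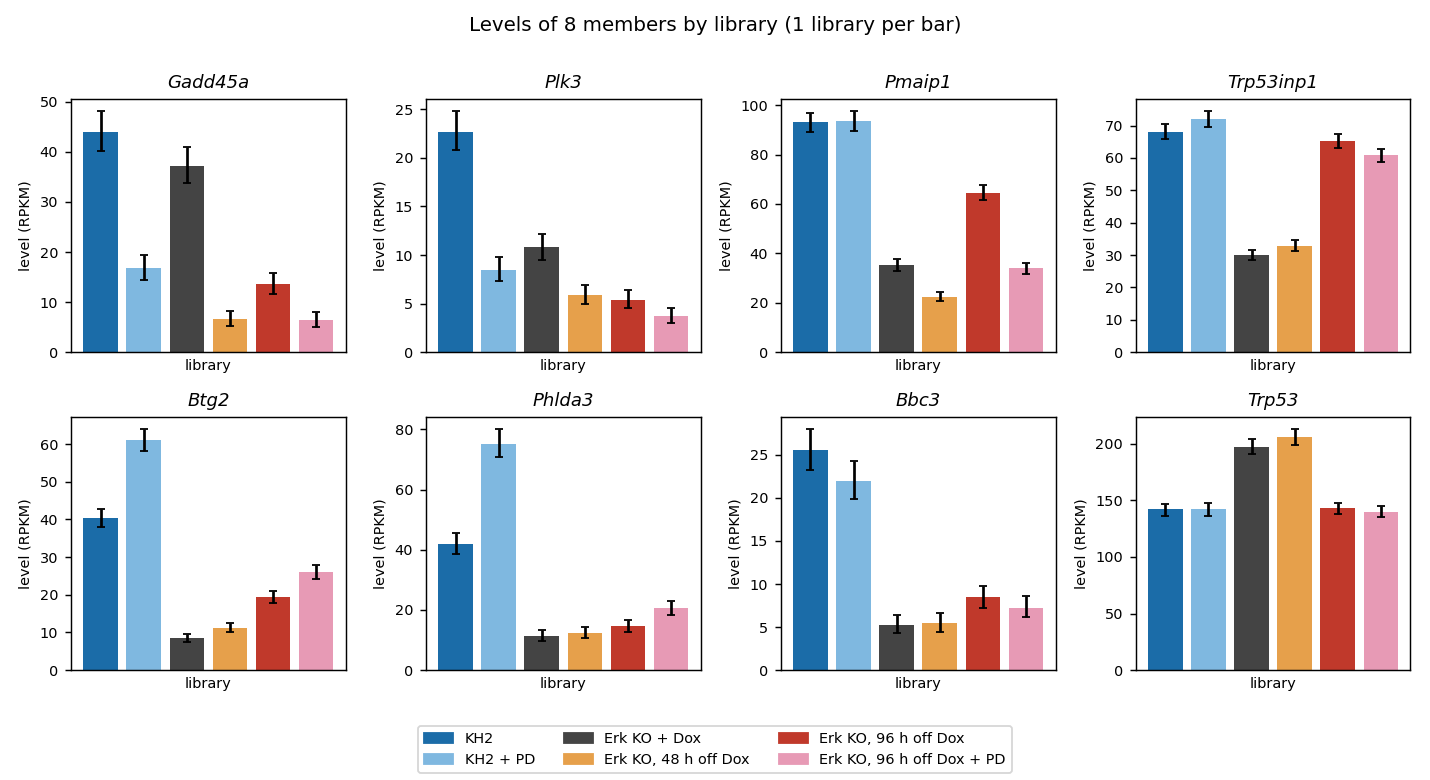
Levels in RPKM of 8 members in the 6 libraries, 1 library per bar, with exact 95% Poisson intervals as error bars that cover counting error only. Gadd45a was high in 2 libraries (44.0 and 37.2 RPKM) and at 6.48 to 16.8 RPKM in the other 4, while Trp53inp1 was at 30 and 32.9 RPKM in the Dox and 48 h libraries and at 60.8 to 71.9 RPKM elsewhere.

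An effect of Dox withdrawal common to 48 h and 96 h was tested over all 6 libraries with edgeR's quasi-likelihood test, with Dox-maintained, Dox-free and KH2 cells as states and the inhibitor as an additive term. With Benjamini-Hochberg adjustment over 15103 genes it called 0 members, against 0.232% of all genes (0.132% higher, 0.0993% lower). At an unadjusted p under 0.05 there were 6 members, 3 higher and 3 lower, and 15.4% of all genes. The lowest adjusted p among members was 0.079 by edgeR, for Gadd45a, which had a fold change of −1.83 on the log2 scale (SE 0.36). Sesn1 was at 0.84 (adjusted p 0.151 by edgeR), Trp73 at 1.77 (0.182), Plk3 at −0.86 (0.224), Btg2 at 0.80 (0.241) and Gdf15 at −1.18 (0.277). DESeq2 called 1 member lower, Gadd45a (log2 fold change −1.85, adjusted p 0.00106 by DESeq2), against 2.83% of all genes (1.79% higher, 1.05% lower).

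In that test the 48 h and 96 h libraries counted as 1 state, so its spread included the difference between them, and its common dispersion was 0.0284 against 0.00735 without the 48 h library. That fit without the 48 h library had 1 Dox-maintained library and 1 residual degree of freedom, from the inhibitor pairs, and its prior degrees of freedom were infinite, so all genes shared 1 trend of spread. In it 6 members were called higher and 6 lower, against 26.3% of 14940 genes (14% higher, 12.3% lower). The 6 higher were Trp73, Btg2, Apaf1, Pmaip1, Trp53inp1 and Sesn1, and the 6 lower were Gadd45a, Plk3, Trp53, Gdf15, Aen and Sulf2.

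With PD0325901 in wild-type KH2 cells, 2 of the 34 members were higher past the size limit, Fas and Gdf15, and 2 lower, Plk3 and Gadd45a. The background was 5.08% of 12787 genes, 3.86% higher and 1.22% lower. Medians were 0.01 for the members and −0.02 for all genes. Fibroblast markers were higher in the same library, with 13 of 21 tested past the limit and a median of 1.64, and their part in the members' ratios was not tested.

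Gadd45a was 2.62-fold lower with inhibitor in KH2 (2.21 to 3.12), and Plk3 2.68-fold lower (2.26 to 3.18). Fas, the death receptor, was at 2.59 RPKM in KH2 and 6.25 RPKM with inhibitor, and at 1.14, 1.46, 1.62 and 3.08 RPKM in the Dox, 48 h, 96 h and inhibited 96 h libraries. The inhibited library was the higher of each pair, 2.41-fold in KH2 (1.61 to 3.69). Gdf15 was 2.36-fold higher in KH2 with inhibitor (1.72 to 3.28), from 57 to 134 reads.

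Members just short of the limit in KH2 were Rrm2b and Phlda3. Rrm2b was 1.98-fold higher (1.59 to 2.49), from 2.91 to 5.78 RPKM. Phlda3, which encodes an inhibitor of the survival kinase Akt, was at 41.9 RPKM in KH2 and 75.3 RPKM with inhibitor, which is 1.80-fold higher (1.62 to 2.0). In the engineered line Phlda3 was at 11.3, 12.3, 14.5 and 20.5 RPKM in the Dox, 48 h, 96 h and inhibited 96 h libraries. Trp53 was at a ratio of 1.0 (0.948 to 1.06), Mdm2 was 1.20-fold higher (1.14 to 1.27) and Ccng1 1.35-fold higher (1.29 to 1.40).

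With the inhibitor in Erk KO cells at 96 h, 0 of 33 members tested were higher past the limit and 1, Gadd45a, was lower by 2.11-fold (1.61 to 2.80). The background was 1.93% of 11920 genes, 1.34% higher and 0.587% lower, and both medians were 0.01. With a pseudocount of 1 the log2 ratio of Gadd45a was −0.97, below the limit. Pmaip1 was 1.89-fold lower (1.74 to 2.06), whereas in KH2 it was at a ratio of 1.01 (0.948 to 1.07). Fas was 1.90-fold higher (1.13 to 3.26), from 24 to 45 reads. Of 20 fibroblast markers tested 12 were higher past the limit, with a median of 1.41, and their part was not tested here either.

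Log2 ratios with inhibitor in the 2 cell states gave Pearson's r as 0.74 and Spearman's rho as 0.70 over 33 members, and 0.68 and 0.53 over 11668 genes. Genes are not independent points, and all those of a pair share its 2 libraries. Of the 33 members 14 had a positive ratio in both pairs, 11 a negative one in both and 8 opposite signs, so that 75.8% had the same sign, against 68.9% of all genes.

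**Figure D4:**
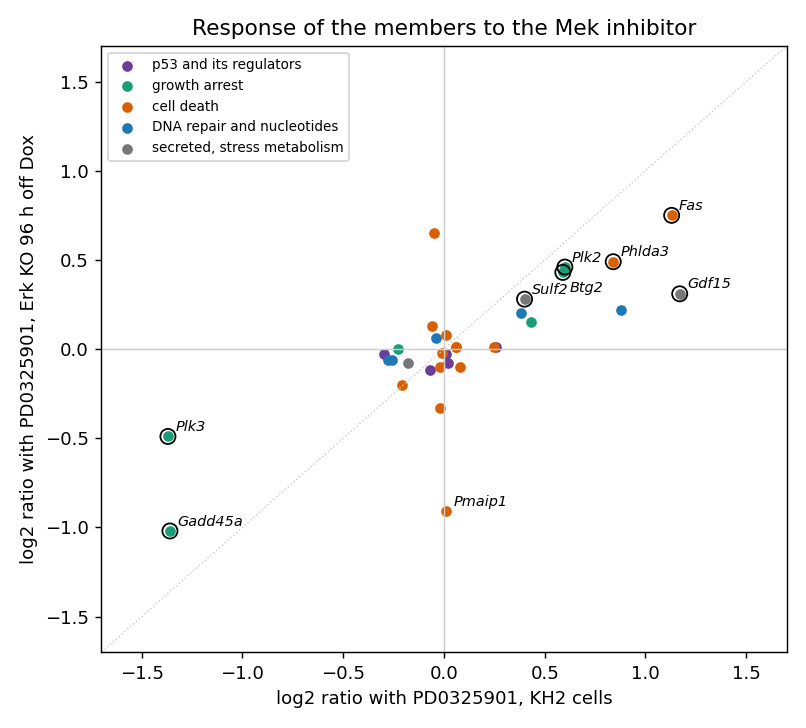
Log2 ratio of RPKM plus 0.5 with PD0325901 in KH2 cells (horizontal) against that in Erk KO cells at 96 h without Dox (vertical), 1 point per member; circled points were called by the common test and the dotted line marks equal ratios. Gadd45a and Plk3 lie at the lower left, Fas, Phlda3 and Gdf15 at the upper right, and Pmaip1 has a ratio of 0.01 in KH2 and −0.91 in Erk KO cells.

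A response to the inhibitor common to KH2 and Erk KO cells was tested on the 2 pairs of libraries, with cell state as a block. By edgeR's quasi-likelihood test 6 members rose and 2 fell of 34, against 8.97% of 14782 genes, 6.05% higher and 2.92% lower. Of the growth arrest genes, Gadd45a fell by 1.26 on the log2 scale (SE 0.16, adjusted p 9.82e-05 by edgeR) and Plk3 fell by 1.06 (SE 0.189, adjusted p 0.00208). Btg2 rose by 0.52 (SE 0.103, adjusted p 0.00421 by edgeR), and so did the polo-like kinase gene Plk2, by 0.54 (SE 0.102, adjusted p 0.00305).

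Plk2 was at 48.8 and 74.3 RPKM in the KH2 pair, at 18.3, 18.5 and 19.9 RPKM in the Dox, 48 h and 96 h libraries, and at 27.4 RPKM in the inhibited 96 h library. The inhibited library was the higher of each pair, as it was for all 6 members that rose. Those 6 were selected by a test of the effect common to these pairs, which favours the same sign in both. Of the death genes Phlda3 rose by 0.70 (SE 0.127, adjusted p 0.00231 by edgeR) and Fas by 1.12 (SE 0.276, adjusted p 0.0179). Gdf15 rose by 0.98 (adjusted p 0.0378 by edgeR) and Sulf2, an extracellular sulfatase that edits heparan sulfate, by 0.34 (adjusted p 0.0375). For Gdf15 the reads were 57 and 134 in the KH2 pair but 21 and 27 in the Erk KO pair.

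Sulf2 was at 40.4 and 53.5 RPKM in KH2, 72.5 and 69.8 RPKM in the Dox and 48 h libraries, and 47.7 and 57.9 RPKM in the 96 h pair. Its high libraries were thus those with Dox and at 48 h, unlike the other members that rose. Rrm2b had a log2 fold change of 0.59 (adjusted p 0.0646 by edgeR), Ccng1 of 0.29 (0.0847) and Pmaip1 of −0.44 (0.104). No regulator was called, and none had an unadjusted p under 0.05, against 22.5% of all genes.

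This test had 1 residual degree of freedom per gene and a median of 13.8 prior degrees of freedom, so its spread was mostly borrowed across genes. DESeq2 called 3 members, Gadd45a and Plk3 lower and Phlda3 higher, against 3.04% of genes (2.33% higher, 0.717% lower), and edgeR called 0 members without the block, where it called 0 of all genes, and 0 over all 6 libraries in 3 states, against 0.781% of 15103 genes. At an unadjusted p under 0.05 these 2 fits had 0 and 8 members, against 1.83% and 11.2% of all genes. In the same test 18 of 22 fibroblast markers rose and 0 fell. Their part in the members' changes was not tested.

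Whether the inhibitor's effect differed between KH2 and Erk KO cells was tested over all 6 libraries. By edgeR's quasi-likelihood test 0 members and 0 of 15103 genes were called, with 0 members and 129 genes at an unadjusted p under 0.05. DESeq2 also called 0, with 0 members and 30 genes at an unadjusted p under 0.05. The member nearest to a difference was Plk3, at 0.76 (SE 0.50, adjusted p 1 by edgeR), where a positive value is a weaker fall in Erk KO cells. Pmaip1 was at −0.38 (SE 0.614). This fit counted the 48 h and 96 h libraries as 1 state, and Pmaip1 differed 2.86-fold between them.

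The Dox-maintained line compared with KH2 gave the most differences. Of the 34 members 13 were lower in the engineered line and 0 higher, against 21.4% lower and 2.76% higher of 12421 genes (24.2% in all). The members' median log2 ratio was −0.80 and that of all genes −0.37. With TMM factors the all-gene median was 0.00, a shift of more than 0.1, the members' median −0.43, and 4 members were lower and 1 higher, against 12.3% and 8.28% of genes. The difference between the medians was −0.43 under library totals, TMM factors and DESeq2 size factors. Here too the scaling could hardly change this difference, since it shifts all genes nearly alike, whereas the counts past the limit did change. Of all genes past the limit 11.4% were higher on library totals, 40.3% with TMM factors and 44.5% with DESeq2 size factors.

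The 4 members lower under each of these 3 scalings were Trp73, Btg2, Bbc3 and Phlda3, and the 1 higher with TMM factors and with DESeq2 size factors was Sulf2, whose log2 ratio was 0.84 on library totals. Trp73 was 9.12-fold lower (5.43 to 16.4), from 141 to 16 reads. Btg2 was 4.71-fold lower (4.10 to 5.42) and Phlda3 3.70-fold lower (3.10 to 4.44). Bbc3, which encodes the BH3-only death protein Puma, was at 25.6 and 22.0 RPKM in KH2 and at 5.27, 5.48, 8.44 and 7.26 RPKM in the Dox, 48 h, 96 h and inhibited 96 h libraries. It was 4.85-fold lower with Dox than in KH2 (3.89 to 6.09), and the KH2 levels did not overlap with those of the engineered line.

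The other 9 members passed on library totals only, with 2.07- to 2.67-fold lower levels. They were Plk2, Plk3, Pmaip1, Perp, Tnfrsf10b, Apaf1, Trp53inp1, Ddb2 and Ercc5. Perp, a desmosomal protein linked to p53-dependent death, was at 31.0 and 30.6 RPKM in KH2 and at 12.2, 10.8, 10 and 7.87 RPKM in the Dox, 48 h, 96 h and inhibited 96 h libraries. Perp did not approach the KH2 level in any library of the engineered line.

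Apaf1 was at 17.7 and 17.0 RPKM in KH2 and at 7.94, 9.05, 13.4 and 14.8 RPKM in the engineered line, in the same order. Tnfrsf10b was at 18.1 and 18.8 RPKM against 8.74, 8.51, 12.6 and 12.7 RPKM. Both stood closer to KH2 in the 96 h libraries than in the Dox and 48 h ones. The damage-recognition gene Ddb2 was at 4.96 and 4.81 RPKM against 1.98, 2.24, 2.66 and 2.79 RPKM. Ercc5, an excision nuclease gene, was at 22.0 and 18 RPKM against 8.59, 8.43, 11.4 and 11 RPKM. Ddb2 had 36 reads with Dox, and with a pseudocount of 1 its ratio was no longer past the limit. For both repair genes every library of the engineered line lay below KH2.

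Both KH2 libraries were above all 4 libraries of the engineered line for 21 of the 34 members (61.8%) and below them for 0, against 43.6% and 14.8% of 13222 genes. Among the death genes this held for 12 of 14, the exceptions being Fas and Ei24, each of which overlapped, and with TMM factors or DESeq2 size factors for 8 of 14. With TMM factors 16 members were above and 5 below, against 26.2% and 27.9% of genes. Fibroblast markers were also lower in the Dox library than in KH2, with 12 of 20 tested past the limit and a median of −1.27, and their part was not tested. The comparison shares the Dox library with those of Dox withdrawal, so the low Dox values of Trp73, Btg2 and Trp53inp1 enter both.

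Members with and without a half-site match in the promoter window were set side by side in the same comparisons. In the line comparison the 10 holders had a median log2 ratio of −0.25 and 0 past the limit. The 16 members with a promoter entry and no match had a median of −0.98 and 8 lower. The 8 members without an entry had a median of −1.08 and 5 lower. Of all genes 21.4% were lower, with a median of −0.37. These values are on library totals, and with TMM factors only 4 of the 34 members were lower. At 96 h without Dox the medians were 0.04 for the holders, 0.28 without a match and 0.41 without an entry. With inhibitor in KH2 the holders were at 0.03 and the members without a match at −0.02. No test was made of these differences, and the windows cover 250 bases only.

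A further list of 18 p53 targets outside the 34 included Cdkn1a, which encodes the CDK inhibitor p21. Cdkn1a was at 72.3 RPKM in KH2 and 203 RPKM with inhibitor, and at 27.8, 38.6, 51.6 and 88.6 RPKM in the Dox, 48 h, 96 h and inhibited 96 h libraries. The Dox library was the lowest and each inhibited library the higher of its pair. It was 1.39-fold higher at 48 h than with Dox (1.24 to 1.56) and 1.85-fold higher at 96 h (1.66 to 2.07), both below the limit. In the common test of the inhibitor 3 of the 18 rose, Cdkn1a by 1.14 (SE 0.138, adjusted p 6.01e-05 by edgeR), the epoxide hydrolase gene Ephx1 by 1.11 and Ccng2, cyclin G2, by 0.49. In that test 1 fell, the 14-3-3 gene Sfn, by 0.44, and of all genes 6.05% rose and 2.92% fell. DESeq2 called 2 of these 4, Cdkn1a and Ephx1, against 3.04% of all genes, as did edgeR over all 6 libraries, against 0.781%. Without the block edgeR called 0 of the 18 and 0 of all genes. There 2 of the 18 had an unadjusted p under 0.05 by edgeR, against 1.83% of all genes.

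At 48 h without Dox 1 of 17 tested genes of that list was higher, the cytokine gene Lif (2.68-fold, 1.95 to 3.72), and 1 lower, Trp53i11 (2.14-fold, 1.75 to 2.62). Of all genes 2.77% were higher and 2.13% lower. At 96 h 0 of 17 passed in either direction, against 9.68% of all genes, and the median was 0.34. Against KH2 the Dox library had 10 of 17 lower and 0 higher, with a median of −1.01. Of all genes 21.4% were lower and 2.76% higher. With TMM factors 6 of the 17 were lower, against 12.3% of all genes, and with DESeq2 size factors 5, against 11.6%. Cdkn1a, at −1.36 on library totals, was at −0.96 and −0.91 with these factors, below the limit. A list of 20 upstream regulators of p53, among them the damage kinases Atm, Atr, Chek1 and Chek2, had 0 genes past the limit at 48 h, at 96 h or with inhibitor in either pair. The shares of all genes were 4.89% at 48 h, 9.68% at 96 h, and 5.08% and 1.93% with inhibitor in KH2 and Erk KO cells. In the common test of the inhibitor by edgeR 0 of these 20 rose and 1 fell, against 6.05% and 2.92% of all genes. For that effect DESeq2 called 0 of the 20, as did edgeR without the block and edgeR over all 6 libraries. Against KH2 the Dox library had 2 of these 20 higher, the nucleolar gene Npm1 (2.04-fold, 2.02 to 2.07) and the deacetylase gene Sirt1 (2.21-fold, 2.03 to 2.41), and 0 lower. With TMM factors or DESeq2 size factors 5 were higher and 0 lower, against 8.28% and 9.3% of all genes higher.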

How the data were processed

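Messenger RNA selected with oligo(dT) from 6 samples of mouse KH2 ESCs was read from 1 end in reads of 50 bases. The authors, per the file headers, gave each gene a count of uniquely mapped reads, which sums to the library total, and an RPKM value from that count. The deposited percent of each gene's length covered by reads was read but not used in any test. The submitters' processing notes name mm9 as the build. Aligner and annotation are not given in the sources used here. Strand is not recorded, so overlapping genes cannot be separated, and uniquely mapped reads make genes with close copies uncertain. Genes without a row in a file were set to 0 reads.

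The 6 files were joined by gene ID over 18857 genes, of which 18805 matched RefSeq. Gene length differed between files for 41 genes, none of them a member. Ratio intervals are exact 95% Clopper-Pearson intervals of a gene's share of reads in 2 libraries, and reads carry no molecular identifiers. Tests used edgeR 4.0.16 in R 4.3.3 on counts, with TMM scaling, at least 20 reads over the libraries and Benjamini-Hochberg adjustment at 0.05, and DESeq2 1.42.0 as an alternative. The size rule and the edgeR tests were checked on simulated counts with known changes, and DESeq2 was not. The simulated counts for the size rule held counting error alone. Those for edgeR had the same dispersion for every gene and no difference between the untreated 48 h and 96 h libraries, unlike real data. Nothing shows that libraries of 1 state are separate cultures, so p-values measure only the spread between these libraries.

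The members, the other lists and the tests were chosen with earlier results of these data known. Values are given for Trp53, Mdm2, Ccng1 and each member that passed in a comparison or test, and the others by range. Promoter windows of members on chromosome 18 were left out, and other windows were chosen as the text states, 3 of them after their values were seen. Alternatives were another pseudocount, fold limit, scaling, read filter, tool, block and set of libraries. One gene of the knockout check is not reported here.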

Additional observations from a re-analysis of the deposited data

How the results depend on the processing

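With a limit of 1.5-fold in place of 2-fold, the members past it numbered 5 of 33 tested at 48 h without Dox (1 higher, 4 lower; 14.8% of all genes), 11 of 34 at 96 h (7 and 4; 23.2%), 7 of 33 between the times (6 and 1; 14.5%), 8 of 34 with inhibitor in KH2 (6 and 2; 14.5%), 4 of 33 in Erk KO cells (2 and 2; 5.51%) and 20 of 34 in the Dox-maintained line against KH2 (1 and 19; 47.3%). With a pseudocount of 1 there was 1 member at 48 h, lower (1.41% of all genes were lower), and 1 between the times, higher (2.68% were higher). With inhibitor in Erk KO cells there were 0 (1.02% of all genes higher, 0.369% lower). With at least 100 reads there was 1 of 28 at 48 h, lower (1.67% of all genes were lower). With TMM factors and with DESeq2 size factors alike there was 1 between the times and 5 in the line comparison (with TMM factors 4.08% and 20.5% of all genes in either direction). The test common to both inhibitor pairs called 3 members with DESeq2, 0 without the block for cell state and 0 over all 6 libraries. The test common to both times without Dox called 1 member with DESeq2, 1 with no read filter (2.04% of all genes), 1 in the 3 untreated libraries of the engineered line (0.84%) and 12 without the 48 h library (26.3%). Its fit without both 96 h libraries has no residual degrees of freedom and was not run. The cause of these changes was not tested. The calls of single members were kept in 170 pairs of a call and an alternative, lost in 52 and reversed in 0. Of those kept, 26 each came from the 1.5-fold limit, a pseudocount of 0.1 and no filter on low values, which could not remove a call. With TMM factors 15 were kept and 11 lost, and with DESeq2 size factors 14 and 12. Without the block 8 were lost and over all 6 libraries 8, which were all the calls there. Scaling of the count of members higher in both KH2 libraries was added after seeing the data. It gave 16 members above and 5 below with TMM factors, against 26.2% and 27.9% of 13222 genes. With DESeq2 size factors 15 were above and 6 below, against 24.9% and 29.0% of genes. Cell state was the 1 block fitted. No paired analysis by replicate number was possible because each group has 1 library and the labels carry no such numbers. Depth limits Trp73, Rprm, Fas, Dram1, Ddb2 and Gdf15, which had under 50 reads in at least 1 library of the engineered line.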
